A study of Mus musculus with 16 samples.

Results

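The transcripts described here encode the proteins that divide a myelinated axon into the node of Ranvier, the paranode, the juxtaparanode and the internode. The 10 genes (Scn8a, Ank3, Nfasc, Cntn1, Cntnap1, Cntn2, Cntnap2, Kcna1, Kcna2 and Cadm4) were taken as a list of names, and every probe whose accession mapped to one of them was followed. They had 19 probes on the array, out of 41174 probes in all, and they are 10 of the 18749 genes with a named probe. The genes Cntn2, Cntnap2 and Nfasc had 3 probes each, Cntn1, Ank3 and Scn8a had 2, and the other 4 genes had 1. All 19 probes passed the filter on dim signals, and 17 of them were well above background on all 16 arrays.

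At the node, voltage-gated sodium channels are clustered by ankyrin G and by a neuronal form of neurofascin. At the paranode, contactin and its partner Caspr on the axon bind a glial form of neurofascin and seal the myelin loops to the axon. Under the compact myelin next to it, the juxtaparanode holds potassium channels that are anchored by contactin 2 and Caspr2, and the internode is bound to the axon by nectin-like adhesion molecules. Because some of these proteins are made by neurons and others by oligodendrocytes, the corpus callosum, the large white matter tract between the hemispheres, holds transcripts of both sources. Most neuronal cell bodies lie outside this tract.

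RNA of the corpus callosum of male C57BL/6 mice was hybridised to 16 single-colour Agilent arrays on 4 slides. The methods give 7 to 8 weeks as the age of the mice included, and no age when RNA was taken. There were 3 arrays of untreated controls on normal chow, 3 of mice fed cuprizone (CPZ) for 2 weeks and 4 of mice on CPZ for 4 weeks, while 6 arrays came from mice returned to regular diet once 4 weeks of CPZ had ended. CPZ is a copper chelator that kills oligodendrocytes, and its dose in powdered chow was 0.2 to 0.4% by the labels and 0.2% by the methods. The match of the controls in age and sex was to the mice fed CPZ for 4 weeks. The same 3 control arrays also serve here for the 2-week mice and the regular diet mice, for which no age match is stated. Comparisons with controls therefore share these arrays and are not independent. By the methods, regular diet lasted 2 days or 2 weeks. The labels do not say which array had which duration, so the mean of the 6 arrays is over a mixture and its spread includes the difference between both durations. The labels number the arrays within a group, each array counts as 1 replicate here, and p-values measure the spread between arrays.

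Values are log2 signals relative to the 75th percentile of the array, so a difference of 1 is 2-fold, and levels are compared only within a probe. A probe was called at a Benjamini-Hochberg adjusted p under 0.05 over all tested probes together with at least a 2-fold difference in limma. The share of probes well above background was between 58.0 and 72.5% on the 16 arrays. It was lowest on untreated 1 (58.0%), 4 weeks CPZ 3 (60.0%) and 4 weeks CPZ 2 (60.9%). These 3 arrays also correlated with each other across their groups, with r between 0.54 and 0.66 on values centred by probe, and the CPZ differences of Cntn2, Nfasc, Kcna1 and Cadm4 from controls are given without them as well. In the fit without them, the differences from controls at 2 and 4 weeks were -0.63 and -0.20 for Ank3 and -0.53 and -0.25 for Cntn1, and those on regular diet were -1.29 for Cntn2 and -0.91 for Kcna1. The contrast between both CPZ times was not run without them. The array that belongs to a sample was in conflict between the deposited sources. Each column of the processed table matched 1 scanner array (lowest r 0.997, next best array at most 0.774), and for 14 of 16 columns that array was recorded under another sample, for 13 under another condition. The condition of an array was therefore taken from its matching column, which departs from the recorded assignment and was decided after values had been seen under both. With the recorded assignment no member was called, and the differences of the brightest probes from controls were positive for all 10 genes at 4 weeks and for all but Cntnap1 (-0.13) and Scn8a (-0.20) at 2 weeks, with 1.06 for Cntn2 and 0.32 for Cntn1.

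After 2 weeks of CPZ, Cntn2 was the member with a called probe, and it fell 5.86-fold against untreated controls. The brightest probes of Kcna1, Nfasc and Cadm4 had means more than 2-fold below the controls but did not pass the test. Those of Ank3 and Cntn1 had log2 differences of -0.64 and -0.50, and those of Scn8a, Cntnap1, Cntnap2 and Kcna2 lay between -0.32 and -0.10, and none of these passed the test. All 19 member probes had a mean below the controls, with a median log2 difference of -0.50, where the median over all tested probes was 0.03. Of all tested probes 46.23% had a lower mean, and of a list of 18 neuronal genes 17 did. Without 2 weeks CPZ 1 the median over the members was -0.32. Of the 19 probes, 8 had every 2-week array below every control, against 9.02% of all tested probes, and 0 had every array above, against 8.29%. One of 19 was called, against 0.193% of all tested probes, and 5 had an unadjusted p under 0.05, against 9.34%.

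**Figure D1:**
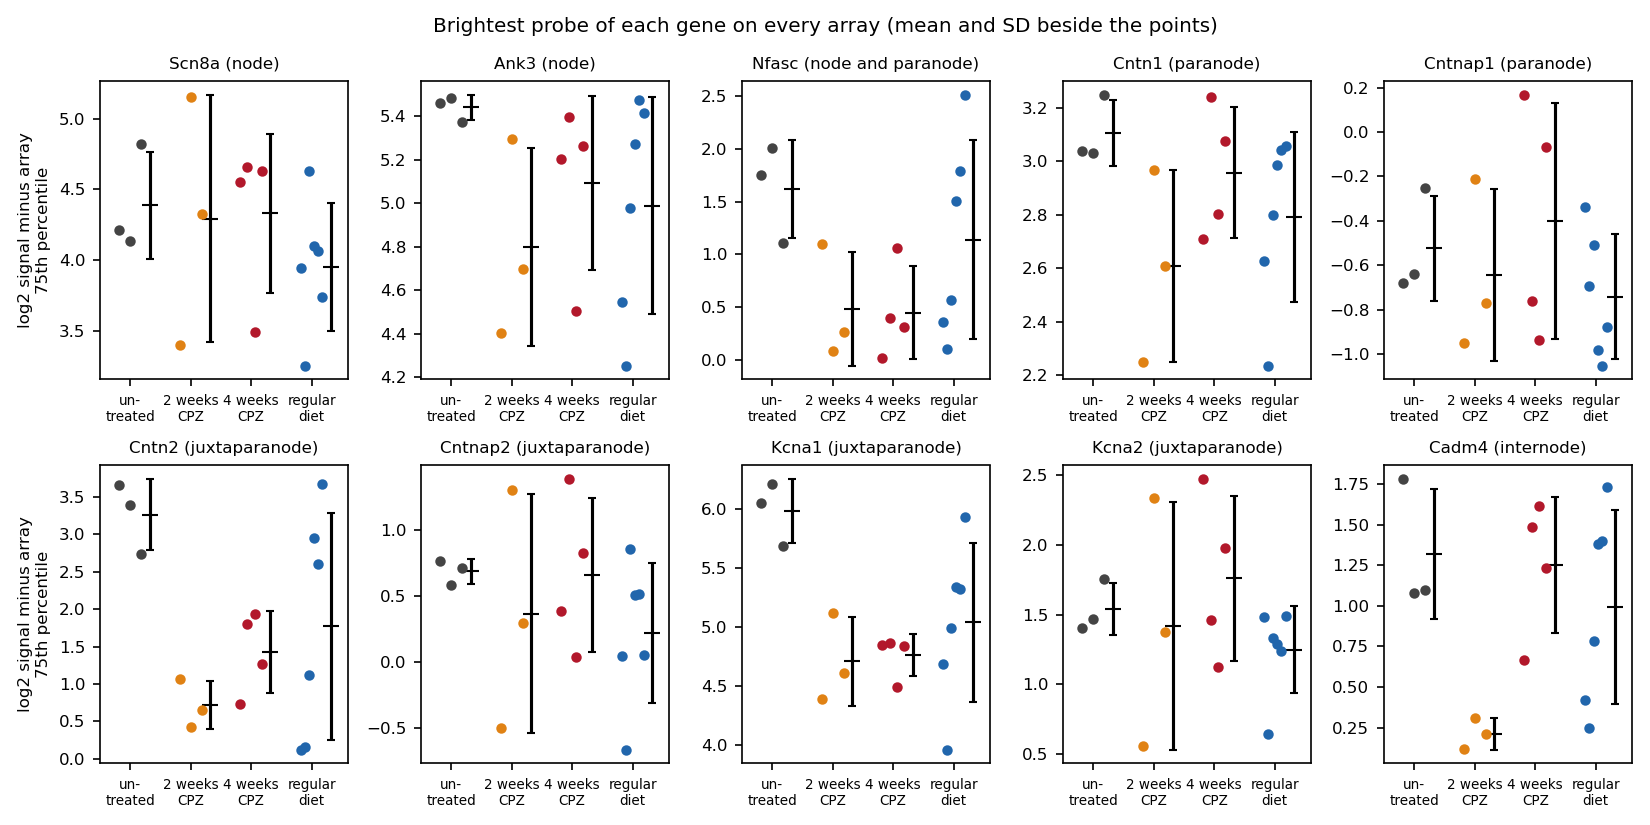
Scaled log2 signal (vertical axis, with its own range in each panel) for the brightest probe of each of the 10 genes in the 4 groups, with 1 point per array and the group's mean and SD beside the points. Cntn2 and Kcna1 lay below all controls on every array of 2 and 4 weeks of CPZ, while the 2-week points of Scn8a and Kcna2 spread on both sides of the controls.

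Cntn2 encodes contactin 2, also called TAG-1, an adhesion molecule that is present on both the axonal and the glial membrane of the juxtaparanode. The level of its brightest probe was 3.66, 3.39 and 2.73 on the control arrays, and 1.06, 0.43 and 0.65 on the 2-week arrays. On the 4-week arrays it was 0.73, 1.80, 1.94 and 1.27. None of the 7 CPZ arrays reached the lowest control. The log2 difference was -2.55 (SE 0.37) at 2 weeks, with an adjusted p of 0.0386 in limma, and -1.83 (SE 0.34) at 4 weeks, with an adjusted p of 0.0812. The 2-week call was close to the threshold. The settings in which it was lost included leaving out any untreated or 2-week array, or 4 weeks CPZ 4, median scaling, all 16 arrays in the fit, only the groups compared, the methods' test, and leaving out the 3 arrays named above (-2.35). In these settings, all with the same assignment of arrays, the difference stayed between -2.81 and -2.35. On slide 1, the 1 slide with both groups, the 2-week difference was -2.81. In tissue RNA of this kind, fewer cells of a type and less RNA per cell cannot be told apart.

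The other probes of Cntn2 were dim. Probe A_52_P365732 had levels of -2.73, -2.20 and -3.03 in controls, -2.80, -3.84 and -4.25 at 2 weeks, and -5.45, -6.50, -3.83 and -5.18 at 4 weeks of CPZ. Probe A_52_P651870 had -3.16, -2.30 and -3.06 in controls, -3.01, -4.09 and -4.08 at 2 weeks, and -6.28, -5.16, -4.25 and -4.87 at 4 weeks. For both, the 2-week arrays overlapped the controls and the 4-week arrays lay below all controls. Probe A_52_P651870 was not well above background on any 4-week array. With a floor set by the lowest signal well above background, its level there was 3.05-fold lower than in controls. This value compares group means without an error and is not a strict bound. Probe A_52_P365732 was well above background on 1 of the 4 arrays. Neither passed the test at 4 weeks, with adjusted p of 0.112 for A_52_P365732 and 0.0967 for A_52_P651870 on the signals as measured. Array weights gave a call for each of them at 2 and at 4 weeks, and A_52_P651870 was also called at 4 weeks with the slide as a random block. The 4-week calls rest on signals mostly not well above background, so they give no size for the difference.

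Nfasc encodes neurofascin, whose neuronal form is held at the node and whose glial form at the paranode. All 3 of its probes carry the same transcript accession, and which form each detects was not resolved. The brightest probe had levels of 1.75, 2.00 and 1.11 in controls, 1.095, 0.09 and 0.27 at 2 weeks, and 0.02, 0.40, 1.06 and 0.31 at 4 weeks of CPZ. Every CPZ array lay below every control, narrowly for 2 weeks CPZ 1 (1.095 against 1.109 in the lowest control). The log2 difference was -1.14 (SE 0.37, adjusted p 0.273) at 2 weeks and -1.17 (SE 0.34, adjusted p 0.222) at 4 weeks. With array weights this probe was called at both times (-1.15 and -1.09). For the other probes, A_51_P309347 and A_52_P331829, the differences were -0.21 and -0.29 at 2 weeks and -0.20 and -0.08 at 4 weeks, with groups that overlapped. The probes of this gene therefore disagreed in size, as the plot of the Cntn2 and Nfasc probes shows.

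**Figure D2:**
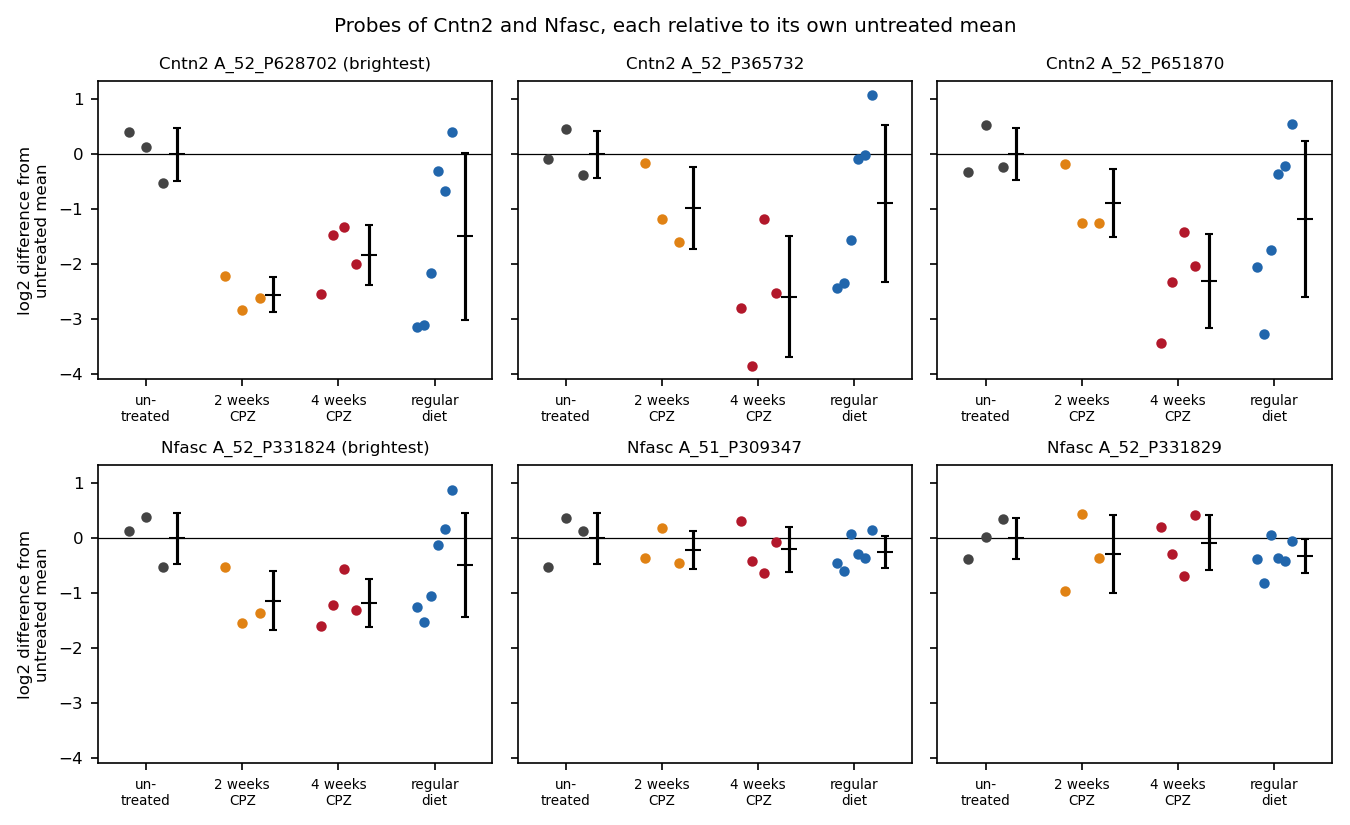
Log2 difference of each array from the probe's own untreated mean (vertical axis) for the 3 probes of Cntn2 (upper row) and the 3 probes of Nfasc (lower row), in the 4 groups, with 1 point per array and the mean and SD beside them. All Cntn2 points of 4 weeks were below 0, though the dim probes A_52_P365732 and A_52_P651870 were well above background on only 1 and 0 of the 4 arrays, while for Nfasc this holds for the brightest probe and the others lie on both sides of 0.

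Kcna1 encodes a voltage-gated potassium channel subunit of the juxtaparanode. Its probe had levels of 6.05, 6.22 and 5.68 in controls, 4.39, 5.12 and 4.61 at 2 weeks, and 4.85, 4.86, 4.49 and 4.84 at 4 weeks of CPZ. Every CPZ array was below every control, and 4 weeks CPZ 3 (4.49) lay below the other 4-week arrays, which were between 4.84 and 4.86. The log2 difference was -1.28 (SE 0.24, adjusted p 0.0756) at 2 weeks and -1.22 (SE 0.23, adjusted p 0.0795) at 4 weeks, both short of the threshold. With the slide as a random block, Kcna1 was called at both times (-1.31 and -1.30), and so it was with array weights (-1.26 and -1.04). With only the groups compared it was called at 4 weeks (-1.22), and with the slide as a fixed block at neither time (-1.35 and -1.41). Kcna2, its partner subunit in the same channels, had a mean of 1.54 ± 0.19 (SD, n = 3) in controls, 1.42 ± 0.89 (SD, n = 3) at 2 weeks and 1.76 ± 0.59 (SD, n = 4) at 4 weeks. The 2-week arrays of Kcna2 ran from 0.55 to 2.34 and surrounded the controls, and its 95% interval at 2 weeks, -1.17 to 0.93, does not exclude a difference of the size seen for Cadm4.

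Cadm4 encodes the main glial adhesion molecule of the internode, which binds related molecules on the axon. Its levels were 1.78, 1.08 and 1.095 in controls, 0.12, 0.31 and 0.21 at 2 weeks, and 0.67, 1.49, 1.62 and 1.24 at 4 weeks of CPZ. The 2-week arrays lay below all controls and below all 4-week arrays, and the 4-week arrays overlapped the controls. The log2 difference from controls was -1.11 (SE 0.29, adjusted p 0.161) at 2 weeks and -0.07 (SE 0.27, adjusted p 0.96) at 4 weeks. The difference between both CPZ times, a contrast added after these values had been seen, was 1.04 (SE 0.27, adjusted p 0.322 in limma). Between 4 and 2 weeks 0 of 19 member probes were called, against 0.0109% of all tested probes, and 4 had an unadjusted p under 0.05, against 10.5%. Of these, Cadm4 (1.04) and the dimmer Cntn1 probe (0.84) were higher at 4 weeks. The dim Cntn2 probes A_52_P365732 (-1.61) and A_52_P651870 (-1.41) were lower there, on 4-week signals mostly not well above background.

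Ank3 encodes ankyrin G, the scaffold of the node, and its brightest probe was 5.46, 5.48 and 5.38 in controls, 4.40, 5.30 and 4.70 at 2 weeks, and 5.21, 5.40, 4.50 and 5.26 at 4 weeks. Its 2-week arrays were below all controls, with a log2 difference of -0.64 (SE 0.29, adjusted p 0.558), and the second probe gave -0.64 (SE 0.40). Cntn1 encodes contactin, the axonal partner of Caspr at the paranode, and both of its probes were below all controls at 2 weeks, by -0.50 (SE 0.23) and -0.54 (SE 0.23). At 4 weeks they differed from controls by -0.15 and 0.30, and neither passed the test at any time. Cntnap1, which encodes Caspr, had a mean of -0.52 ± 0.24 (SD, n = 3) in controls, -0.64 ± 0.39 (SD, n = 3) at 2 weeks and -0.40 ± 0.53 (SD, n = 4) at 4 weeks. Scn8a encodes the sodium channel of mature nodes, and its brightest probe had a mean of 4.39 ± 0.38 (SD, n = 3), 4.29 ± 0.87 (SD, n = 3) and 4.33 ± 0.56 (SD, n = 4) in the same order. Cntnap2, which encodes Caspr2, had 0.69 ± 0.09 (SD, n = 3), 0.36 ± 0.90 (SD, n = 3) and 0.66 ± 0.58 (SD, n = 4) by its brightest probe. For these last 3 genes the CPZ arrays spread to both sides of the controls. Of the dimmer Cntnap2 probes, A_52_P215750 had levels of -0.90, -0.97 and -0.90 in controls and 0.86, 0.14, -1.43 and 0.48 at 4 weeks, so that 3 of 4 arrays lay above all controls and 1 below. Its log2 difference at 4 weeks was 0.93 (SE 0.58, adjusted p 0.701), and it was called higher with array weights (1.32).

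After 4 weeks of CPZ, no member passed the test, and 5 of 19 probes (the 3 of Cntn2, the brightest of Nfasc and that of Kcna1) had every array below every control, against 4.74% of all tested probes. For the dim Cntn2 probes most of these 4-week signals were not well above background. By the brightest probe of each gene it was 3 of 10 genes, against 704 of 13877 tested genes with a name. In the other direction it was 0 of 19, against 5.25%. The count of called probes was 0 of 19 against 0.164%, and the same 5 probes had an unadjusted p under 0.05 against 10.1%. The median log2 difference over the 19 probes was -0.07, with 12 below 0, and over all tested probes it was -0.03. Without 4 weeks CPZ 3 the median over the members was 0.12, and without untreated 3 it was -0.01. Without the 3 arrays that correlate across groups, Cntn2 was called at 4 weeks (-2.06), and so it was with the slide as a fixed block (-1.72) or a random block (-1.79). In the fit without those 3 arrays, Nfasc differed from controls by -1.07 at 2 weeks and -1.39 at 4 weeks, Kcna1 by -1.24 and -1.11, and Cadm4 by -0.88 and -0.14, and none of these was called.

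**Figure D3:**
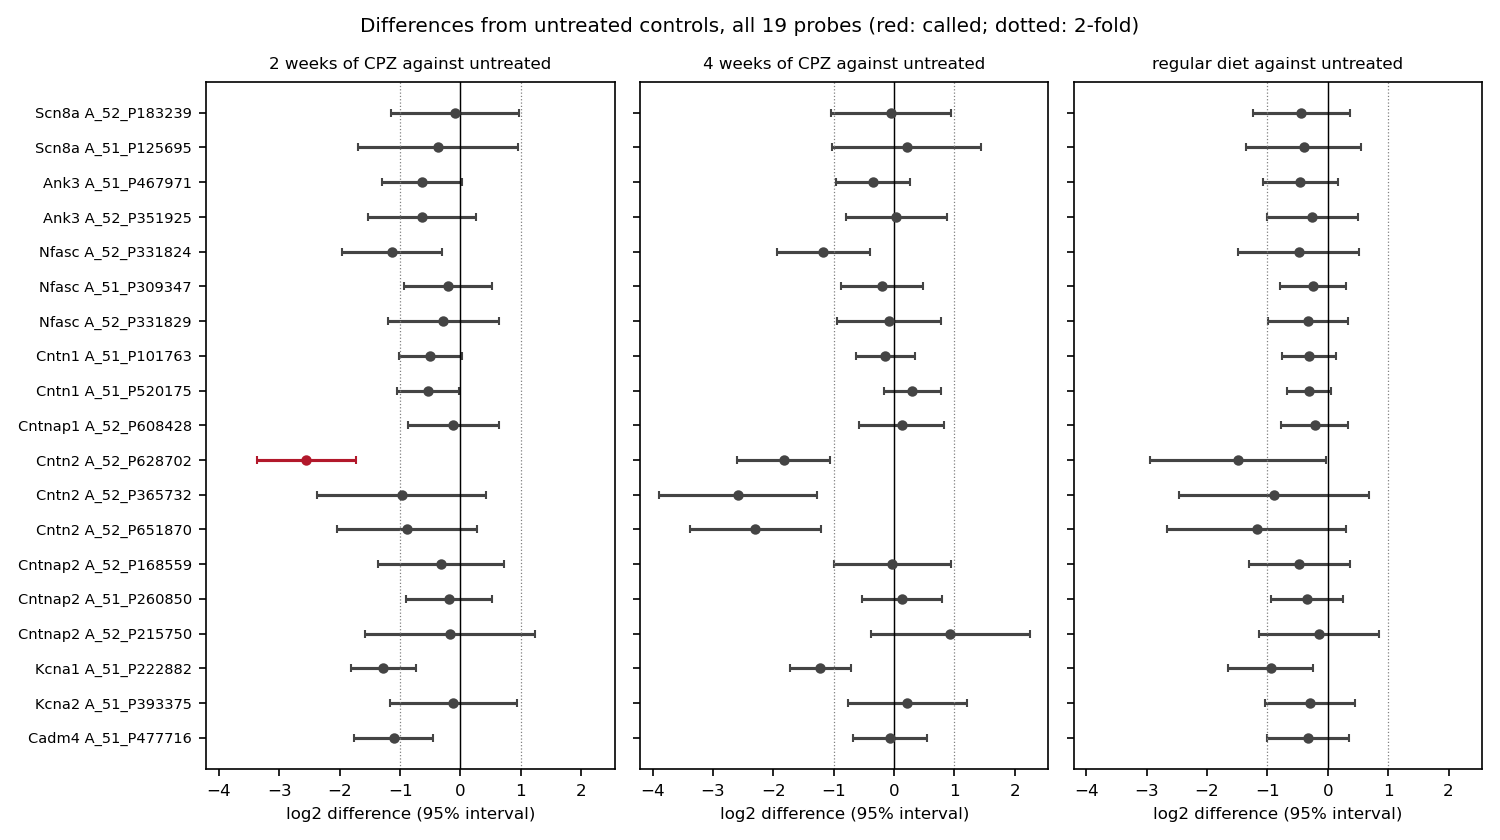
Log2 difference from untreated controls (horizontal axis) with its 95% interval for all 19 probes, after 2 weeks of CPZ, 4 weeks of CPZ and regular diet. The brightest Cntn2 probe at 2 weeks (-2.55, in red) is the called one, and most intervals of the other genes include 0.

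On regular diet after CPZ, the 6 arrays spread widely for the genes that were lowest under CPZ. For the brightest Cntn2 probe the levels on arrays 1 to 6 were 0.12, 0.16, 1.11, 2.95, 2.61 and 3.68, so that no array lay between 1.11 and 2.61. On the same arrays, in the same order, the median log2 difference of 18 myelin and oligodendrocyte genes from the untreated mean was -3.30, -3.26, -2.56, -0.11, -0.04 and 0.61, and that of 9 microglia genes was 3.83, 4.15, 0.96, 0.95, 1.49 and 0.91. On values centred by probe, arrays 1 and 2, the lowest for Cntn2, correlated with each other with r = 0.883, and arrays 4, 5 and 6 with r between 0.56 and 0.63. Nfasc ran from 0.11 to 2.51 with a median of 1.03, Cadm4 from 0.25 to 1.73 with a median of 1.08, and Kcna1 from 3.96 to 5.93 with a median of 5.16. The SD of Cntn2 was 1.51 on these arrays, against 0.48 in controls and 0.55 at 4 weeks of CPZ. Scn8a ran from 3.25 to 4.63 (median 4.00), Ank3 from 4.25 to 5.47 (median 5.13), Cntn1 from 2.23 to 3.06 (median 2.89), Cntnap1 from -1.05 to -0.34 (median -0.79), Cntnap2 from -0.66 to 0.85 (median 0.28) and Kcna2 from 0.64 to 1.49 (median 1.31). Against untreated controls, the log2 difference was -1.49 (SE 0.68, adjusted p 0.461) for Cntn2 and -0.95 (SE 0.33, adjusted p 0.296) for Kcna1. All 19 probes had a mean below the controls, with a median difference of -0.34 against -0.03 over all tested probes. Of all tested probes, 52.78% had a lower mean. All 18 myelin and oligodendrocyte genes were lower too (median -1.47), and so were all of a list of 18 neuronal genes (median -0.41). Of the 19 probes, 0 were called against 0.799% of all tested probes, and 2 had an unadjusted p under 0.05 against 10.7%. One probe, the dimmer of Cntn1, had every array below every control, against 3.86%, and 0 had every array above, against 4.88%.

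Against 4 weeks of CPZ, the means on regular diet were higher by 0.34 (SE 0.62) for the brightest probe of Cntn2, 0.69 (SE 0.43) for Nfasc and 0.28 (SE 0.30) for Kcna1, and none passed the test. The dimmer Cntn1 probe A_51_P520175 had a difference of -0.61 (SE 0.16, adjusted p 0.0891), the smallest p among the members here. The dim Cntn2 probe A_52_P365732 had measured means of -3.55 on regular diet and -5.24 at 4 weeks (adjusted p 0.153), but it was well above background on 4 of 6 and 1 of 4 of these arrays. Its call with array weights rests on the same signals and gives no size for the difference. The Cntnap2 probe A_52_P215750 had a difference of -1.08 (SE 0.42, adjusted p 0.15), and it was called without 4 weeks CPZ 3 (-1.56), without the 3 arrays that correlate across groups (-1.73), with median scaling (-1.38) and with array weights (-1.21). In this comparison 0 of 19 probes were called against 0.0036% of all tested probes, 3 had an unadjusted p under 0.05 against 24.7%, and 14 of 19 had a lower mean on regular diet, with a median difference of -0.26 against 0.01 over all tested probes. That median was -0.45 without 4 weeks CPZ 3, -0.15 without 4 weeks CPZ 1 and -0.13 without regular diet after CPZ 2. A lower mean on regular diet was also found for 49.19% of all tested probes. It was found for all 18 neuronal genes (median -0.52) and for 1 of the 18 myelin and oligodendrocyte genes.

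The order of the group means can be read within each probe. For the brightest probes of Cntn2 and Kcna1 it was untreated, regular diet, 4 weeks and 2 weeks of CPZ from the highest down. For Nfasc the CPZ times were level, at 0.48 and 0.45 below 1.14 on regular diet and 1.62 in controls, and for Cadm4 the order was 1.32 in controls, 1.25 at 4 weeks, 0.99 on regular diet and 0.21 at 2 weeks. In each of these orders the arrays of neighbouring groups overlapped. The dim Cntn2 probes had the CPZ times in the opposite order. Their measured means were -3.63 at 2 and -5.24 at 4 weeks (A_52_P365732), and -3.73 and -5.14 (A_52_P651870). Most of these 4-week signals were not well above background. The Cntn2 probes therefore disagreed in direction between both CPZ times.

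Lists of cell markers were set beside the members on each array, as the median log2 difference from the untreated mean over the genes of the list. The list of 18 measured myelin and oligodendrocyte genes (Ermn had no probe by that name) lay between -0.55 and 0.50 on control arrays, -4.66 and -1.58 at 2 weeks, -3.98 and -1.53 at 4 weeks of CPZ, and -3.30 and 0.61 on regular diet. Of these 18 genes, 0 were called by their brightest probe, 16 had every 2-week array and 12 every 4-week array below every control, and their median difference was -2.76 and -2.35. Over all 13877 tested genes with a name, by the brightest probe, 1430 had every 2-week array and 704 every 4-week array below every control, and 20 were called lower and 13 higher at 2 weeks and 10 lower and 18 higher at 4 weeks. Mbp, a major protein of compact myelin, differed by -3.21 and -2.37, and Mog by -4.49 and -2.75, without passing the test. The list of 18 neuronal genes lay between -0.30 and 0.25 in controls, -1.11 and 0.36 at 2 weeks, -0.24 and 0.59 at 4 weeks and -1.04 and 0.01 on regular diet, with medians over genes of -0.35 and 0.14 at 2 and 4 weeks. Among its genes, Snap25 differed by -0.17 and 0.47 and Nefl by -0.11 and 0.37. The microglia list lay between -0.37 and 0.65 in controls, -0.10 and 1.154 at 2 weeks, 0.75 and 1.98 at 4 weeks and 0.91 and 4.15 on regular diet. Of its 9 tested genes 7 had a higher mean than controls at 2 weeks and 9 at 4 weeks, with medians of 0.76 and 1.48 and 0 called, and its gene Aif1 differed by 0.76 and 1.69. Of the 8 astrocyte genes 4 had a higher mean at 2 weeks and 5 at 4 weeks, with medians of 0.00 and 0.18 and 0 called, and Gfap, with 1.18 and 1.13, was the highest of them at both times. All 9 genes of the oligodendrocyte precursor list had means below the controls at both times, with medians of -1.08 and -0.85 and 0 called, and the list lay between -0.51 and 0.52 in controls, -1.61 and -0.30 at 2 weeks, -1.45 and 0.11 at 4 weeks and -0.68 and 0.38 on regular diet. The astrocyte list lay between -0.40 and 0.80 on all 16 arrays and the list of red blood cell genes between -1.21 and 1.26. The choroid plexus list (5 of 7 genes tested) lay between -1.18 and 1.44 in controls, -1.04 and 1.25 at 2 weeks, -2.36 and 3.26 at 4 weeks and -1.89 and 2.76 on regular diet. On the 3 arrays that correlate across groups it was 1.44 (untreated 1), 1.76 (4 weeks CPZ 2) and 3.26 (4 weeks CPZ 3), above the other arrays of their groups. The part of these lists in the differences of the members was not tested.

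**Figure D4:**
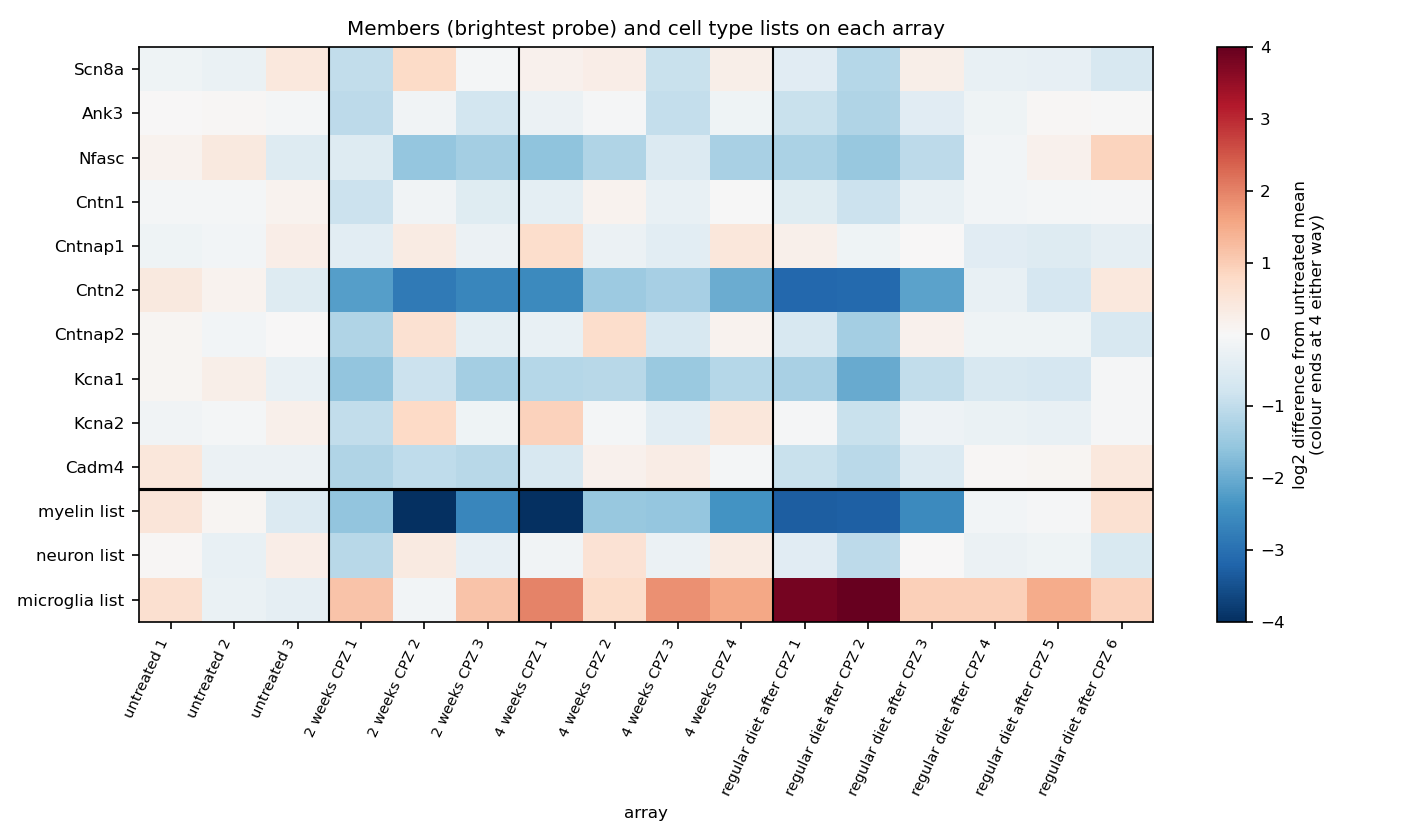
Log2 difference from the untreated mean (colour, blue lower and red higher) on each of the 16 arrays for the brightest probe of the 10 genes (upper rows) and for the median of the myelin, neuron and microglia lists (lower rows), with black lines between the groups. The arrays with the lowest myelin list, down to -4.66, are also dark for Cntn2, and the colour of Scn8a and Cntnap2 changes together with the neuron list.

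The members differed in which list they varied with over the 16 arrays. These correlations describe arrays that share groups, slides and scaling, and they carry no test. Removal of the group means keeps the spread inside the regular diet group, which mixes both durations. On its arrays 1 to 3 the myelin list was -3.30, -3.26 and -2.56. On arrays 4 to 6 it was -0.11, -0.04 and 0.61. An r after this removal may therefore still include differences of treatment. Pearson's r with the myelin list was 0.94 for Cntn2, 0.92 for Nfasc, 0.74 for Cadm4 and 0.69 for Kcna1 (brightest probes), and after removal of the group means it was 0.92, 0.90, 0.82 and 0.48. With the neuron list the same probes had r of 0.14, -0.20, 0.40 and 0.33, and 0.06, -0.21, 0.28 and 0.44 after removal of the group means, so that for Kcna1 both lists then gave close values. For Cntnap2 it was the neuron list that gave the higher r, with an r of 0.95 with the neuron list and 0.00 with the myelin list, and for Scn8a, with 0.87 and -0.26. Cntn1 had 0.80 with the neuron list and 0.47 with the myelin list, Ank3 0.66 and 0.47, Kcna2 0.68 and -0.34, and Cntnap1 0.42 and -0.61. Among the dimmer probes, those of Nfasc had r of -0.05 and -0.18 with the myelin list, and those of Cntn2 are not compared, since part of their signals were not well above background. The array 2 weeks CPZ 1, where the neuron list was lowest (-1.11), also had the lowest 2-week level of Scn8a (3.40), Cntnap2 (-0.50), Kcna2 (0.55), Ank3 (4.40), Cntn1 (2.25), Kcna1 (4.39), Cadm4 (0.12) and Cntnap1 (-0.95), while the myelin list was higher there (-1.58) than on the other 2-week arrays.

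**Figure D5:**
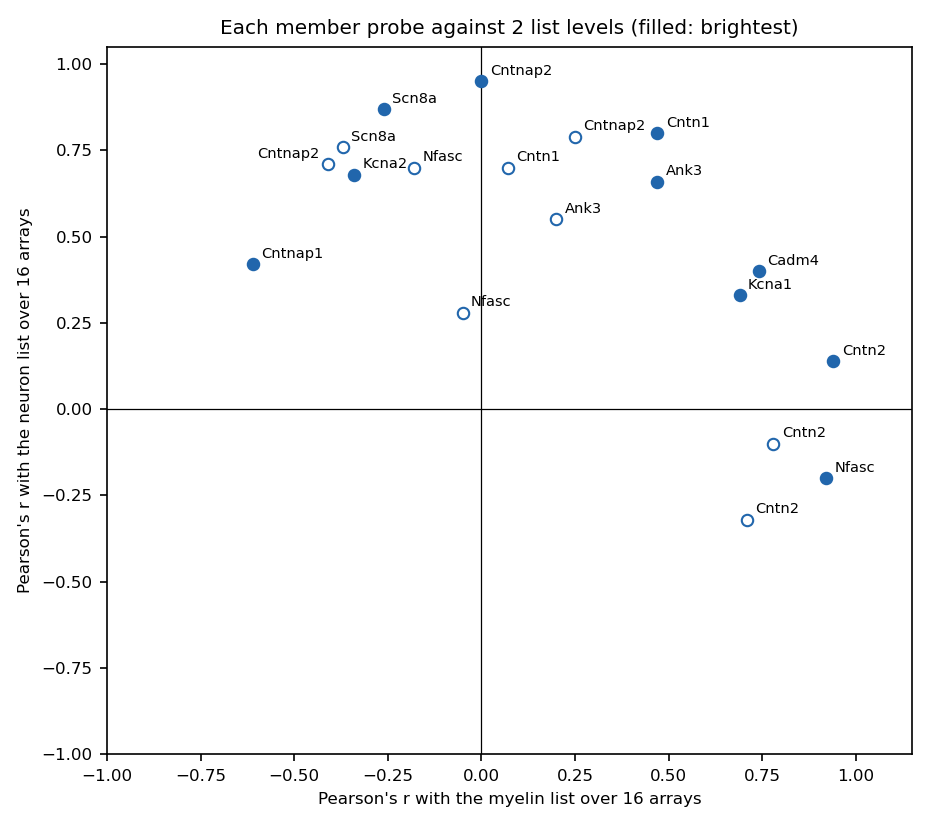
Pearson's r of each of the 19 member probes with the level of the myelin list (horizontal axis) and of the neuron list (vertical axis) over 16 arrays, with the brightest probe of each gene filled; the open Cntn2 points rest in part on signals not well above background. Cntn2 (0.94) and the brightest Nfasc probe (0.92) lie at the right end, and Cntnap2 (0.95) and Scn8a (0.87) at the top.

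The genes with the most similar pattern were found among 12598 genes by the same measure over 16 arrays. For Cntn2 they were Emilin3 (r = 0.980), Gpr62 (0.980) and Nipa1 (0.979), and for Nfasc 4930402H24Rik (0.965), Cilk1 (0.965) and Wipi1 (0.963). For Cadm4 they were Hcn2 (0.957), 2610306M01Rik (0.899) and Shisa4 (0.894), and for Kcna1 Ptprd (0.939), Epn2 (0.930) and Bace1 (0.918). For Scn8a they were Aak1 (0.974), Enc1 (0.964) and Bsn (0.962), and for Ank3 Cdh10 (0.942) and Anks1b (0.939). Cntnap2 was most like Rbfox3 (0.972), which was a member of the neuron list, followed by Akap6 (0.966) and Lrrc4c (0.965). Cntn1 was most like Ap2a1 (0.936), Ppp2r2c (0.924) and Tarsl2 (0.915), Cntnap1 like Rock2 (0.898), Pom121 (0.895) and Pcgf2 (0.892), and Kcna2 like Btbd8 (0.958), D430041D05Rik (0.953) and Pcdh7 (0.952).

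The sequence before the start of Cntn2, Nfasc and Cadm4, which had the highest r with the myelin list, is shown beside that of Kcna2 (r = -0.34), from RefSeq on build GRCm38.p6, whose table held 7 of the 10 genes. Each is the 250 bases before the start on the strand of the gene. Cntn2 lies at chr1:132542941-132543190 on the minus strand, the farther start of Nfasc at chr1:132707327-132707576 on the minus strand, Cadm4 at chr7:24481773-24482022 and Kcna2 at chr3:107101317-107101566 on the plus strand. Capitals mark the letters ACAAAG (the core of Sox sites), CAGCTG (an E-box), GGGCGG (a GC box) and TATAAA, searched on both strands.
Cntn2: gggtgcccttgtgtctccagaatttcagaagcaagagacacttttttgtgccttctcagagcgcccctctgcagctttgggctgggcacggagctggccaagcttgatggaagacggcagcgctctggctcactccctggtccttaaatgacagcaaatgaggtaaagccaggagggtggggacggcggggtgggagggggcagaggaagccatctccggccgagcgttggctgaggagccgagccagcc
Nfasc: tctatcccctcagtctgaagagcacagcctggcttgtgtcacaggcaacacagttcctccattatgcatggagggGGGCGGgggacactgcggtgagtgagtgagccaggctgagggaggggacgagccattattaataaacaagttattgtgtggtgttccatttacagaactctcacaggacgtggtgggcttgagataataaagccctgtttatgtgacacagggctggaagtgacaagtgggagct
Cadm4: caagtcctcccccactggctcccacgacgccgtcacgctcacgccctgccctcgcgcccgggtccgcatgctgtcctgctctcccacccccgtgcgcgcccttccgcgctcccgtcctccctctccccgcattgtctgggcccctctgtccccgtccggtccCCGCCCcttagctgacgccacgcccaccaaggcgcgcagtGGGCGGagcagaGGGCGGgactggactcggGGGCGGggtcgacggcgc
Kcna2: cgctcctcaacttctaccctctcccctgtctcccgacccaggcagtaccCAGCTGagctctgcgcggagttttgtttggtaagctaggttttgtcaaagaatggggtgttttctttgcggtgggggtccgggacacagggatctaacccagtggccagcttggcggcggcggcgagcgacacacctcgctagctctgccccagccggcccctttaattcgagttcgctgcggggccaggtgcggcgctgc
No window of these 4 held ACAAAG or TATAAA, which occur in 16.5% and 12.4% of all 32851 promoter windows of this length. Cadm4 held 4 copies of GGGCGG and Nfasc 1, a motif found in 32.7% of all windows, Kcna2 held 1 copy of CAGCTG, found in 4271 of them, and Cntn2 held none of the motifs. The GC content was 61.2% for Cntn2, 52.0% for Nfasc, 75.2% for Cadm4 and 62.4% for Kcna2, and its median over all windows was 52.4%. The window of the other start of Nfasc, chr1:132642859-132643108, held none of the motifs and is not printed.

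Other genes of the same axonal domains were followed from lists of names. Of 41 such genes, 34 were tested. By their brightest probe 0 were called at 2 weeks or 4 weeks, 9 had every 2-week array and 8 every 4-week array below every control, and 0 had every array above at either time. Over all 13877 tested genes with a name, the counts were 1430 and 704 for every array below and 1211 and 903 for every array above. The paranode list had a median over 8 genes of -1.92 at 2 weeks and -1.46 at 4 weeks, against -0.06 and 0.05 over 7 node genes, -0.24 and 0.02 over 12 juxtaparanode and internode genes and -0.30 and -0.24 over 7 perinodal matrix genes. The 8 paranode genes ran from -3.30 to -0.12 at 2 weeks and from -2.66 to 0.17 at 4 weeks. Among the paranode members, Cntn1 differed by -0.50 and -0.15, Cntnap1 by -0.12 and 0.12, and Nfasc by -1.14 and -1.17 (brightest probes). Whether the list medians follow the domain or the cell type that makes the transcripts was not tested. In the paranode list, Mag, an adhesion molecule of the innermost myelin layer, differed by -3.30 and -2.0, Ugt8a, which makes galactocerebroside, by -3.04 and -2.66, Gal3st1, which turns it into sulfatide, by -2.52 and -1.64, and Myo1d, a motor protein, by -2.26 and -2.20. Of the perinodal matrix list, Hapln2, a link protein of the matrix around nodes, differed by -3.02 (SE 0.76) and -2.80 (SE 0.72), with every CPZ array below every control. The differences of the 7 genes of this list ran from -3.02 to -0.10 at 2 weeks. At 4 weeks they ran from -2.80 to 0.57, and 2 were above 0. Sptbn1 of the paranode list, a spectrin of the membrane skeleton, had 2 called probes at 4 weeks (-2.93 and -2.39, adjusted p 0.0392 each), while its brightest probe differed by 0.03, so its probes disagreed.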

How the data were processed

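Transcripts of the corpus callosum were read on 16 single-colour arrays. For each spot the authors deposited the intensity from Agilent Feature Extraction (version 11.0.1.1 by the submitters' processing notes), background-subtracted but not scaled between arrays, and a table of processed log2 values, whose rows all (100%) centre on a median of 0 in the 3 untreated columns (tolerance 0.0001). Control spots and outlier spots (48 to 126 outlier spots an array) were left out, spots of a probe were averaged, and log2 intensity was set relative to the 75th percentile. Names came from accessions (27479 of 41174 probes). A probe entered the test if all arrays of 1 or more groups had it well above background. Tests were made with limma 3.58.1 in R 4.3.3. Untreated, 2 weeks and 4 weeks of CPZ shared a fit of 10 arrays (27494 probes), and regular diet was compared in a fit of all 16 (27774 probes). The brightest probe stands for a gene where 1 value is given. The genes named are the members with every probe, the listed axonal genes that were called or among the 4 largest differences at either time, example markers, and the 3 most similar genes of each member, of which 1 is not reported here. The members and lists were chosen with earlier results of these data known. No pseudocount was used. The number of arrays limits the precision. The script was tested on simulated data.

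The alternatives were quantile normalization, median scaling, normexp with an offset of 50 on the median signal (the mean signal was not used here), other filters on dim probes, the slide as a fixed or random block (statmod 1.5.0), the replicate number as a block, array weights, each array left out, the methods' ANOVA with Tukey's HSD in words, the authors' processed values, the recorded assignment of arrays, and other sets of arrays in the fit.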

Additional observations from a re-analysis of the deposited data

Results flagged for a closer look

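Of 38 combinations of a member probe with a group of 4 or 6 arrays, 3 held an array far from the others of its group, where chance alone gives about 1 in 20. On 4 weeks CPZ 3, Kcna1 had a level of 4.49 below 3 arrays between 4.84 and 4.86, and the brightest probe of Scn8a had 3.49 below 3 arrays between 4.55 and 4.66. On regular diet after CPZ 2, Kcna2 had a level of 0.64, with the other 5 arrays between 1.24 and 1.49.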

How the results depend on the processing

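The 1 called member probe at 2 weeks of CPZ became 0 with median scaling, the methods' test, the recorded assignment, all 16 arrays in 1 fit and only the 2 groups compared, and 0 without the 3 arrays that correlate across groups (an alternative chosen after seeing the data). It became 2 with the slide as a random block and 5 with array weights, whose estimate did not fully converge. Leaving out 1 array at a time gave between 0 and 1. At 4 weeks of CPZ, the 0 calls became 1 with the slide as a fixed block, 3 with the slide as a random block, 6 with array weights (5 lower and the Cntnap2 probe A_52_P215750 higher), 1 with only the 2 groups compared and 1 without those 3 arrays. Among these, the calls of the dim Cntn2 probes rest on 4-week signals mostly not well above background. For regular diet against 4 weeks of CPZ, the 0 calls became 1 with median scaling, 2 with array weights and 1 without those 3 arrays, and leaving out 1 array gave between 0 and 1. Under the recorded assignment the medians over member probes moved to 0.20 at 2 weeks, 0.38 for regular diet against untreated and 0.25 against 4 weeks, and the differences at 2 and 4 weeks reversed to 1.06 and 0.43 for Cntn2, 0.65 and 0.21 for Nfasc, and 0.24 and 0.28 for Kcna1, and to 0.87 for Cadm4 at 2 weeks, while differences that were not called, such as those of Cntn1 (0.32 and 0.26) and Ank3 (0.21 and 0.29), turned positive too. With the arrays assigned as in the report, the 2-week median over member probes ranged from -0.71 to -0.32. Apart from fewer arrays in the fit, the cause was not tested. Same-numbered arrays of 2 groups had correlations of their deviations between -0.81 and 0.34. Those of untreated arrays with 4-week arrays were -0.81, -0.75 and -0.76. This check cannot decide whether the numbers pair the samples, because the deviations are from means of few arrays. The replicate number as a block left 0 calls at 2 weeks.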
